A study of Mus musculus with 24 samples.

Results

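The epidermal growth factor (EGF) family genes Epgn, Hbegf, Areg, Ereg, Btc, Tgfa and Egf, which encode ligands, and Egfr, which encodes their common receptor, were followed in amputated mouse digits. Members were found by gene symbol in the probe-to-gene table of the platform. Of the 8 symbols, 7 had a probe set, with 1 probe set each, among the 16661 probe sets of the array. Areg, amphiregulin, was not analysed here. Digits came from MRL/MpJ mice (MRL), an inbred strain known for the closure of ear-punch wounds, and from C57BL/6 mice (B6), a common inbred laboratory strain. The MRL arrays were labelled day 0, day 3, day 7 and day 14 after surgical amputation, and so were the B6 arrays. Day 0 stands for the intact digit, and each of the 8 groups held 3 arrays labelled as biological replicates, 24 in all. All mice were wild type and aged 3 to 4 months. RNA was taken from both middle hindlimb digits, and the labels do not say how many mice went into an array. The piece is named as the phalanx bone segment in one label and as the front part of the digit in another. It holds whole tissue, so that skin, hair follicles, bone and blood-borne cells all contribute to each value.

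EGF family ligands are made as membrane-bound precursors, and metalloproteases of the Adam family release the soluble part from the cell surface. The released ligand binds EGFR, which pairs with itself or with the related receptors ErbB2, ErbB3 and ErbB4 and signals through Ras and the MAP kinases. Feedback inhibitors such as Errfi1, Lrig1 and the Sprouty proteins limit the signal. In skin the system is known for its part in keratinocyte growth and migration and in hair follicle cycling, and mice with mutations in Tgfa or Egfr have wavy hair and whiskers.

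Values are log2 of the deposited array intensities, given per array in the order of replicates 1, 2 and 3. A difference is the first group minus the other in log2 with its standard error (SE), from 1 limma fit to all 24 arrays. A call is an adjusted p under 0.05 after Benjamini-Hochberg adjustment over the 15928 probe sets with a gene symbol. Array medians lay between intensities of 141 and 181, a step of 0.36 in log2. Fold changes are the differences of mean log2 values taken off the log scale, that is, ratios of geometric means.

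The arrays labelled MRL day 0 and MRL day 3 went against their labels. The mean log2 level of 6 neutrophil markers was 6.01 to 7.34 on the arrays labelled MRL day 3 and 9.08 to 9.55 on those labelled MRL day 0. In B6 the same markers stood at 5.83 to 6.05 on day 0, 10.36 to 10.77 on day 3, 8.12 to 9.13 on day 7 and 7.84 to 8.59 on day 14. The mean of 5 hair shaft markers, which fell to 6.33 to 6.50 at day 3 in B6 against 9.54 to 9.81 at day 0, was 9.23 to 9.47 on the arrays labelled MRL day 3 and 7.28 to 7.55 on those labelled MRL day 0. Comparisons with these 6 arrays are therefore given apart and as labelled. Skin and connective tissue markers were bright on every array: the mean log2 level of 8 basal keratinocyte markers was 10.28 to 10.92 and that of 5 fibroblast markers 11.53 to 12.63.

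In B6 digits the family split after amputation. At day 3, Epgn and Hbegf were higher than in intact digits, while Ereg, Btc, Tgfa and Egfr were lower. At day 7 Epgn and Hbegf were still higher, Tgfa was still lower, and Ereg, Btc and Egfr had come back to levels that did not pass the test against day 0. At day 7 in MRL digits, Epgn and Hbegf were lower than in B6 digits of the same day. Among these calls, those of Epgn at days 3 and 7, of Ereg, Btc and Egfr at day 3, and of Epgn between the strains at day 7 kept their direction and passed under each alternative run and with any 1 of the compared arrays left out. The plot of every array shows these patterns gene by gene.

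**Figure D1:**
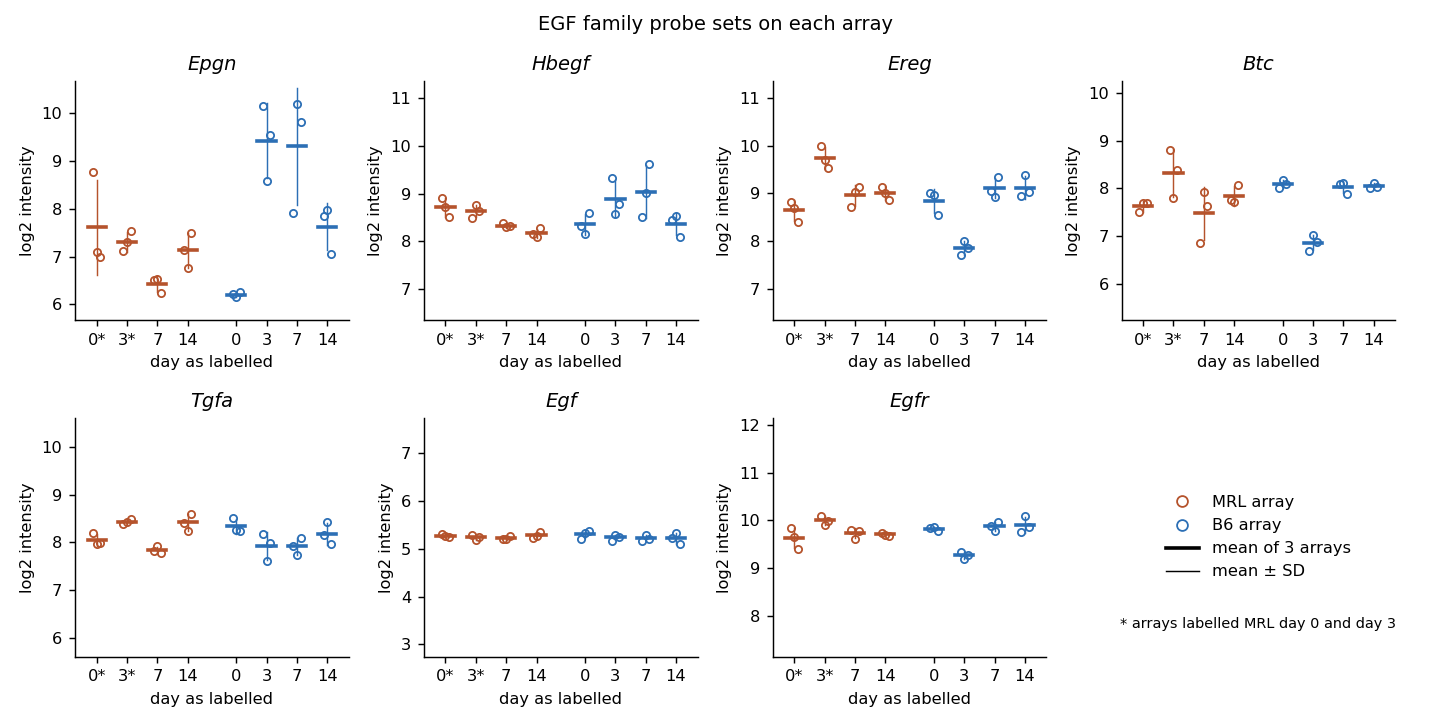
Log2 intensity (y axis) of the 7 EGF family probe sets on each of the 24 arrays, by day as labelled (x axis), MRL left and B6 right in each panel; open circles are arrays, thick bars the mean of 3 arrays and thin lines the mean ± SD. Epgn lies between 8.59 and 10.15 in B6 at day 3 against 6.14 to 6.26 in B6 at day 0, and Egf stays between 5.10 and 5.38 on all 24 arrays; asterisks mark the arrays labelled MRL day 0 and day 3.

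Epgn encodes epigen, a ligand that binds EGFR with low affinity and enlarges sebaceous glands when overproduced in mouse skin. It is shown with the bases before its start because it had the largest change of the members. In the RefSeq annotation of build GRCm38.p6 its neighbours among the protein-coding genes of chromosome 5 are Mthfd2l on one side and, on the other, Ereg, then Areg and Btc, so that 4 of the ligands lie side by side. The window searched for motifs runs from 250 bases before the start of a gene to 50 bases after it, and the 250 bases before the start of Epgn are on the plus strand at chr5:91027267-91027516. Capitals mark matches to a CCAAT box (here ATTGG) and a TATA box (TATAAA).
Epgn, before the start: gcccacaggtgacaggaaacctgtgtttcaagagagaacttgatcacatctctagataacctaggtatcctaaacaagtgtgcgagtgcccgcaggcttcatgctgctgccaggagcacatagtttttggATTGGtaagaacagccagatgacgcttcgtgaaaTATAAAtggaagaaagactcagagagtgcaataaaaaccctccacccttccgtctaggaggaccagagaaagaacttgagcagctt
The CCAAT box match began 120 bases before the start and the TATA box match 86 bases before it. Over the same window of all 32851 promoters searched, on both strands, 37.4% held CCAAT and 13.6% held TATAAA. The window of Epgn had a GC content of 47.3%, against a median of 52.7% over all promoters. It held no AP-1 site (TGANTCA), which 7.81% of promoters held, and no cAMP response element (TGACGTCA), which 1.79% held.

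Epgn read 10.15, 8.59 and 9.53 in B6 at day 3, against 6.21, 6.14 and 6.26 in B6 at day 0. All 3 arrays of day 3 stood far above all 3 of day 0, and day 3 varied more, with 9.42 ± 0.79 against 6.21 ± 0.06 (SD, n = 3 each). The difference was 3.22 ± 0.48, a 9.31-fold higher intensity (limma adjusted p = 1.88e-05). More or fewer cells of a type and more or less RNA per cell cannot be told apart in such bulk samples. This holds here and for every member below. The B6 arrays of day 7 read 7.90, 10.20 and 9.81, above every array of day 0, with a difference of 3.10 ± 0.48 (limma adjusted p = 3e-05). Replicate 1 of day 7 was the low array and lay within the range of day 14. At day 14 the B6 arrays read 7.84, 7.97 and 7.06, still above day 0 on all 3 arrays, by 1.42 ± 0.48 (limma adjusted p = 0.026). That call was lost with an offset of 32 added before log2, where the difference was 1.12 (limma adjusted p = 0.0595). It was also lost without any 1 of the 3 B6 arrays of day 0 (1.42, 1.39 and 1.44, limma adjusted p = 0.0552 to 0.0630) and without B6 day 14 replicate 1 (1.31) or replicate 2 (1.25, limma adjusted p = 0.0927).

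Hbegf encodes heparin-binding EGF-like growth factor, a ligand of EGFR and ErbB4 that is known to promote keratinocyte migration in skin wounds. It read 9.33, 8.58 and 8.79 in B6 at day 3, against 8.33, 8.16 and 8.59 at day 0. The groups overlapped, since replicate 2 of day 3 lay just below replicate 3 of day 0. The difference was 0.54 ± 0.21 (limma adjusted p = 0.0411). This call was lost with array weights (0.40, limma adjusted p = 0.147), with only the compared groups in the fit (limma adjusted p = 0.0600), with the replicate block (limma adjusted p = 0.0518) and without the 6 doubtful MRL arrays (limma adjusted p = 0.0614). It was also lost without B6 day 0 replicate 1 (0.52) or 2 (0.44) and without B6 day 3 replicate 1 (0.32, limma adjusted p = 0.222) or 3 (0.59). At day 7 the B6 arrays read 8.51, 9.0 and 9.62, with a difference of 0.68 ± 0.21 from day 0 (limma adjusted p = 0.0116) and with replicate 1 inside the range of day 0. That call was lost with only the compared groups in the fit (limma adjusted p = 0.0564), without B6 day 0 replicate 2 (0.58, limma adjusted p = 0.0564) and without B6 day 7 replicate 3 (0.40, limma adjusted p = 0.103). At day 14 the B6 arrays read 8.46, 8.53 and 8.10, a mean of 8.36 ± 0.23 against 8.36 ± 0.22 at day 0 (SD, n = 3 each).

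Ereg encodes epiregulin, a ligand of EGFR and ErbB4. It read 7.72, 8.0 and 7.86 in B6 at day 3, against 9.0, 8.96 and 8.56 at day 0. All 3 arrays of day 3 lay below all 3 of day 0, with a difference of -0.98 ± 0.16, a 1.97-fold lower intensity (limma adjusted p = 5.3e-05). The B6 arrays of day 7 read 9.06, 8.92 and 9.33 and at day 14 they read 8.94, 9.39 and 9.02, and both days overlapped day 0. Day 7 stood 1.25 ± 0.16 above day 3 (limma adjusted p = 1.14e-05).

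Btc encodes betacellulin, a ligand of EGFR and ErbB4 that lies on the far side of the ligand cluster. It read 6.70, 7.02 and 6.88 in B6 at day 3, against 8.02, 8.17 and 8.09 at day 0. All 3 arrays of day 3 lay below all 3 of day 0, with a difference of -1.22 ± 0.21, a 2.33-fold lower intensity (limma adjusted p = 0.000105). At day 7 the B6 arrays read 8.08, 8.11 and 7.88 and at day 14 they read 8.02, 8.12 and 8.04, both overlapping day 0. Day 7 stood 1.16 ± 0.21 above day 3 (limma adjusted p = 0.000523). In B6, Ereg, Btc and Egfr were lower than in intact digits at day 3 and were not called against day 0 at days 7 and 14. No promoter window was found for Ereg, so the bases before the starts of Btc and Egfr are shown together. In build GRCm38.p6 they lie at chr5:91402995-91403244 on the minus strand for Btc and at chr11:16751953-16752202 on the plus strand for Egfr. Capitals mark matches to an ETS core (CCGGAA, here as TTCCGG) and an Sp1 site (GGGCGG, here as CCGCCC).
Btc, before the start: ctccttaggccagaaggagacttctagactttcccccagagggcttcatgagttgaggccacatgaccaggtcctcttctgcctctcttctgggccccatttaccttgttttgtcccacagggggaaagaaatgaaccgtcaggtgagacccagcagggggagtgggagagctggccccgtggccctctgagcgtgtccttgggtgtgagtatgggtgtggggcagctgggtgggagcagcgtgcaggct
Egfr, before the start: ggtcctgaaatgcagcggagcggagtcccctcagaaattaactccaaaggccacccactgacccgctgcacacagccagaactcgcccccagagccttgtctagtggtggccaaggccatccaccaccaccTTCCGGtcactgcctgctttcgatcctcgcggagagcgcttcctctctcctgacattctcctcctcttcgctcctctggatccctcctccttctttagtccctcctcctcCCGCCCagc
The window of Btc held no match to any of the 6 motifs searched, in 60.3% GC. In the window of Egfr, at 62.3% GC, the ETS core match began 119 bases before the start and the Sp1 match 9 bases before it. Of all promoters, 14.9% held an ETS core and 35.7% an Sp1 site.

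Tgfa encodes transforming growth factor alpha, a ligand of EGFR made by keratinocytes. It read 8.18, 7.61 and 8.0 in B6 at day 3, against 8.51, 8.26 and 8.23 at day 0. The arrays did not overlap, but replicate 1 of day 3 lay just below the lowest array of day 0. The difference was -0.40 ± 0.14 (limma adjusted p = 0.0233). This call was lost with cyclic loess scaling (-0.25, limma adjusted p = 0.0651), with median scaling (-0.25, limma adjusted p = 0.0688) and with only the compared groups in the fit (limma adjusted p = 0.0767). It was also lost without B6 day 0 replicate 1 (-0.31) and without B6 day 3 replicate 2 (-0.25, limma adjusted p = 0.171). The B6 arrays of day 7 read 7.93, 7.73 and 8.09, lower than day 0 by a difference of -0.42 ± 0.14 (limma adjusted p = 0.0201). That call was lost without B6 day 0 replicate 1 (-0.33, limma adjusted p = 0.0988) and without B6 day 7 replicate 2 (-0.32, limma adjusted p = 0.111). At day 14 the B6 arrays read 8.15, 8.43 and 7.98 and overlapped day 0, and Tgfa was called lower there with quantile normalization alone (-0.30).

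Egf encodes the ligand that gave the family its name, made mostly in salivary gland and kidney. Its probe set read 5.10 to 5.38 on the 24 arrays, with a mean level at the 17.9 percentile of the probe sets tested, and no comparison called it. Of the 7 members, 6 passed a filter on dim probe sets, all but Egf.

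Egfr encodes the receptor shared by the ligands. It read 9.33, 9.19 and 9.28 in B6 at day 3, against 9.84, 9.85 and 9.77 at day 0. The arrays of each day lay close together and the days did not overlap, with 9.27 ± 0.07 against 9.82 ± 0.05 (SD, n = 3 each). The difference was -0.55 ± 0.10, a 1.46-fold lower intensity (limma adjusted p = 0.000199). At day 7 the B6 arrays read 9.87, 9.78 and 9.97 and at day 14 they read 9.76, 10.09 and 9.86, both overlapping day 0. Day 7 stood 0.61 ± 0.10 above day 3 (limma adjusted p = 0.00021).

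Counted over the 7 members, B6 day 3 against day 0 had 2 higher and 4 lower, where 17.4% and 28.0% of all probe sets tested were called higher and lower. The median difference of the members was -0.40, against -0.08 over all probe sets tested. The split over all probe sets depended on the scaling: median scaling moved the median of all probe sets to 0.08 and called 4446 higher and 2963 lower, in place of 2776 and 4458, and cyclic loess called 3594 higher and 3459 lower. At day 7 against day 0, 2 members were higher and 1 lower, beside 23.5% and 19.4% of all probe sets. Quantile normalization turned that overall split to 3419 higher and 4361 lower, in place of 3743 and 3095. At day 14 against day 0, 1 member was higher, Epgn, and 0 were lower, beside 22.8% and 14.2% of all probe sets. That overall split, 3624 higher and 2266 lower, became 3303 and 4052 with median scaling and 3117 and 4133 with quantile normalization. Day 7 against day 3 in B6 had 3 members higher, Ereg, Btc and Egfr, beside 17.0% of all probe sets called higher. Over all probe sets 2708 were higher and 664 lower there, against 1355 and 2239 with median scaling. Day 14 against day 7 in B6 called 0 of 7 by limma, with 2 at an unadjusted p under 0.05, beside 1.86% of all probe sets called either way. Those 2 were Epgn, at -1.68 ± 0.48 (limma adjusted p = 0.0879), and Hbegf, at -0.68 ± 0.21 (limma adjusted p = 0.12). Without B6 day 7 replicate 1 both passed, Epgn at -2.38 (limma adjusted p = 0.00258) and Hbegf at -0.95 (limma adjusted p = 0.0111). Hbegf also passed with cyclic loess (-0.71, limma adjusted p = 0.0479) and with median scaling (-0.74, limma adjusted p = 0.0365).

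**Figure D2:**
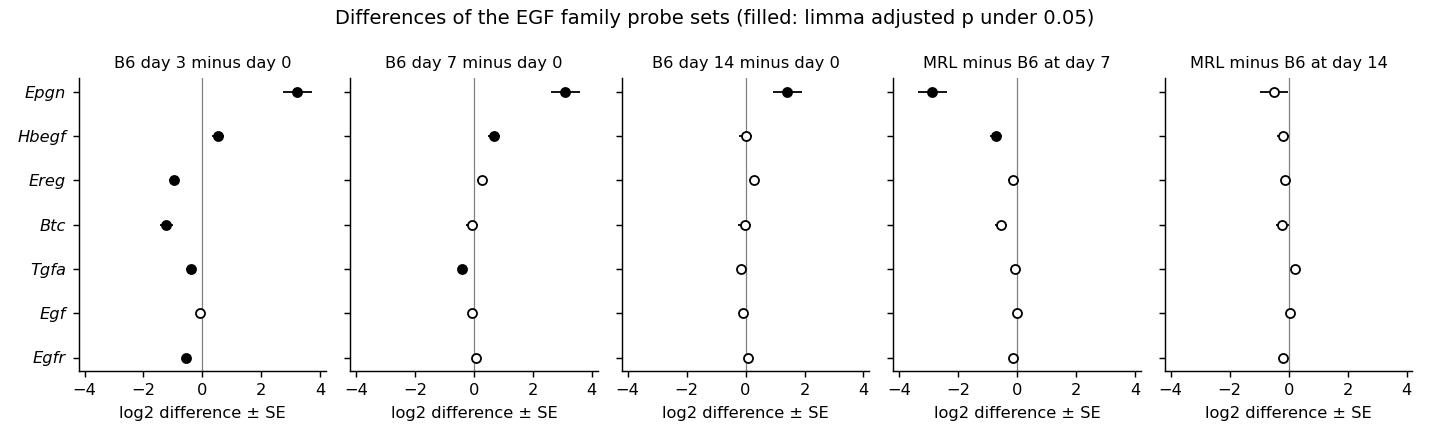
Log2 difference (x axis, ± SE) of each EGF family probe set (rows) in 5 comparisons, with filled circles for a limma adjusted p under 0.05. In B6 at day 3 Epgn and Hbegf are filled to the right of 0 and Ereg, Btc, Tgfa and Egfr to the left, and MRL minus B6 at day 7 has Epgn at -2.88 and Hbegf at -0.71.

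Cell type markers moved in the same B6 comparison. At day 3 all 6 neutrophil markers and all 8 macrophage markers were higher than at day 0, and all 5 hair shaft markers measured were lower. Of 8 basal keratinocyte markers, 5 were lower (Krt15, Trp63, Col17a1, Itgb4 and Dst), 0 were higher, and Krt5, Krt14 and Itga6 did not pass. The mean log2 level of that list was 10.28 to 10.45 at day 3, against 10.77 to 10.84 at day 0. Krt14 and Itga6 were called higher at day 3 with median scaling, at 0.33 and 0.40, and Dst (-0.28) was lost with cyclic loess (-0.20), median (-0.13) and quantile (-0.23) scaling and without B6 day 0 replicate 1 (-0.26) or 2 (-0.26) or B6 day 3 replicate 1 (-0.28) or 2 (-0.24). Dst was also lost with the compared groups alone (limma adjusted p = 0.0702). Krt16, a keratin of wounded epidermis, was higher than at day 0 by 3.58 ± 0.58 at day 3 and by 3.47 ± 0.58 at day 7 (limma adjusted p = 4.44e-05 and 6.4e-05). Krt17, the other wound keratin measured, was lower at day 3, at -0.43 ± 0.15 (limma adjusted p = 0.0235), a call lost with median (-0.27) and quantile (-0.27) scaling and without B6 day 0 replicate 1 (-0.41) or 3 (-0.41) or B6 day 3 replicate 2 (-0.43) or 3 (-0.34). The part of these markers in the results for the EGF family was not tested.

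At day 7 the strains were compared directly. Epgn read 6.52, 6.53 and 6.24 in MRL, against 7.90, 10.20 and 9.81 in B6. All 3 MRL arrays lay below all 3 B6 arrays, with a difference of -2.88 ± 0.48, a 7.34-fold lower intensity in MRL (limma adjusted p = 0.000521). The MRL values were close to those of intact B6 digits, 6.14 to 6.26. Hbegf read 8.38, 8.29 and 8.31 in MRL, against 8.51, 9.0 and 9.62 in B6, again with no overlap, and the MRL arrays were much more alike than the B6 arrays. The difference was -0.71 ± 0.21 (limma adjusted p = 0.0333). That call was lost with array weights (-0.50, limma adjusted p = 0.0506), with only the compared groups in the fit (limma adjusted p = 0.118) and without the 6 doubtful MRL arrays (limma adjusted p = 0.0599). It was also lost without B6 day 7 replicate 2 (-0.73) or 3 (-0.43, limma adjusted p = 0.216) and without MRL day 7 replicate 1 (-0.74), 2 (-0.70) or 3 (-0.71).

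The other ligands and the receptor did not pass the test between the strains at day 7. Btc read 6.87, 7.93 and 7.64 in MRL, against 8.08, 8.11 and 7.88 in B6. Replicate 1 was the low MRL array and replicate 2 lay inside the B6 range, with a difference of -0.54 ± 0.21 (limma adjusted p = 0.124). Without MRL day 7 replicate 2 the difference passed, at -0.77 (limma adjusted p = 0.0381). Ereg read 8.71, 9.02 and 9.14 in MRL and overlapped B6. Tgfa read 7.81, 7.92 and 7.78 in MRL and Egfr 9.80, 9.61 and 9.77, both overlapping B6 as well. Of the 7 members, 2 were called lower in MRL and 0 higher, beside 6.27% and 3.18% of all probe sets called lower and higher. Their median difference was -0.15, against -0.07 over all probe sets tested. Cyclic loess gave 1022 probe sets higher and 966 lower in MRL, in place of 507 and 999. Of the keratinocyte markers, Krt16 was lower in MRL by a difference of -2.49 ± 0.58 (limma adjusted p = 0.00823), a call lost without MRL day 7 replicate 3 (-2.06, limma adjusted p = 0.0551). Krt17 was lower by a difference of -0.75 ± 0.15 (limma adjusted p = 0.00242). Of 8 basal keratinocyte markers, 2 were lower, Krt14 and Itga6, and of 8 macrophage markers 5 were lower. Of 6 neutrophil markers 1 was lower, and of 5 hair shaft markers 4 were higher. The mean log2 level of the basal list was 10.31 to 10.41 in MRL, against 10.34 to 10.56 in B6. The part of these markers in the strain difference of Epgn and Hbegf was not tested.

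At day 14 the strains did not differ by a call in any member. Epgn read 7.13, 6.76 and 7.50 in MRL, against 7.84, 7.97 and 7.06 in B6, and the groups overlapped. Hbegf read 8.15, 8.10 and 8.27 in MRL, against 8.46, 8.53 and 8.10 in B6, with overlap as well. Egfr was the member whose arrays did not overlap, with 9.74, 9.70 and 9.67 in MRL against 9.76, 10.09 and 9.86 in B6, a difference of -0.20 ± 0.10 (limma adjusted p = 0.34). The limma test called 0 of 7 members, and 0 had an unadjusted p under 0.05, beside 5.27% of all probe sets called either way. Over all probe sets 138 were higher and 701 lower in MRL, against 492 and 500 with median scaling.

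Within MRL, day 14 against day 7 called 1 of the 7 members higher, Tgfa, beside 1.75% of all probe sets. Tgfa read 8.41, 8.24 and 8.60 at day 14, against 7.81, 7.92 and 7.78 at day 7, so that the lowest array of day 14 exceeded the highest of day 7. The difference was 0.58 ± 0.14 (limma adjusted p = 0.0209). That call was lost with only the compared groups in the fit (limma adjusted p = 0.0596), without MRL day 7 replicate 1 (0.56) or 3 (0.55) and without MRL day 14 replicate 1 (0.58) or 3 (0.49, limma adjusted p = 0.104). Epgn also lay higher at day 14 on all 3 arrays, by 0.70 ± 0.48, and did not pass (limma adjusted p = 0.623). The change between day 7 and day 14 was then set against that in B6. For Epgn the MRL change exceeded the B6 change by 2.38 ± 0.68, which did not pass (limma adjusted p = 0.267) unless B6 day 7 replicate 1 was left out (3.08, limma adjusted p = 0.017). The limma test called 0 of 7 members in that comparison, with 1 at an unadjusted p under 0.05, beside 0.264% of all probe sets called either way.

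On the arrays labelled MRL day 3, Epgn read 7.11, 7.30 and 7.52, and on those labelled MRL day 0 it read 8.76, 7.09 and 6.99. All 6 arrays stood above the intact B6 digits, and replicate 1 labelled day 0, the highest MRL array, reached into the range of B6 day 3. Hbegf read 8.50, 8.75 and 8.65 on the arrays labelled day 3 and 8.91, 8.72 and 8.51 on those labelled day 0. Ereg read 9.98, 9.69 and 9.53 on the arrays labelled day 3, the highest Ereg values of the series, and 8.83, 8.70 and 8.40 on those labelled day 0. Btc read 8.79, 7.79 and 8.38 on the arrays labelled day 3 and 7.50, 7.68 and 7.69 on those labelled day 0. Egfr read 10.10, 9.90 and 9.99 on the arrays labelled day 3 and 9.83, 9.66 and 9.41 on those labelled day 0. Tgfa read 8.38, 8.42 and 8.49 on the arrays labelled day 3 and 8.20, 7.97 and 7.98 on those labelled day 0. For Ereg, Btc, Egfr and Tgfa all 3 arrays labelled day 3 lay above all 3 labelled day 0, where in B6 all 3 arrays of day 3 lay below all 3 of day 0. The share of all probe sets with this pattern was not counted. In the strain difference of the day 3 change as labelled, 45.2% of all probe sets were called either way.

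Tested as labelled, MRL day 3 minus day 0 called 3 of 7 members higher, beside 13.4% of all probe sets: Ereg at 1.09 ± 0.16 (limma adjusted p = 4.26e-05), Btc at 0.70 ± 0.21 (0.0243) and Egfr at 0.36 ± 0.10 (0.0149). Btc did not pass without the array labelled MRL day 0 replicate 1 (0.64) or 3 (0.73) or that labelled MRL day 3 replicate 1 (0.46) or 3 (0.67), nor with cyclic loess (0.57), with quantile normalization (0.57) or with the compared groups alone in the fit (limma adjusted p = 0.0595). Egfr did not pass without the array labelled MRL day 0 replicate 3 (0.25) or MRL day 3 replicate 1 (0.31), nor with the compared groups alone (limma adjusted p = 0.0730). Tgfa, at 0.38 ± 0.14, passed only without the array labelled MRL day 0 replicate 1 (0.45) among the arrays left out in turn. Tgfa also passed with median scaling (0.31, limma adjusted p = 0.0477) and with dim probe sets left out (limma adjusted p = 0.0453). The same held with the compared groups alone (limma adjusted p = 0.0270) and with array weights (0.40, limma adjusted p = 0.0117). MRL day 7 minus the arrays labelled day 0 called 0 of 7 by limma, with 1 at an unadjusted p under 0.05, beside 17.3% of all probe sets called either way. MRL day 14 minus the arrays labelled day 0 called 0 of 7, with 3 at an unadjusted p under 0.05, beside 17.7%, and Tgfa passed there without MRL day 14 replicate 2 (0.46). Hbegf, at -0.54 ± 0.21 (limma adjusted p = 0.0792), passed there with cyclic loess (-0.60), median (-0.62) and quantile (-0.60) scaling. It also passed with array weights (-0.61) and with the compared groups alone (limma adjusted p = 0.0267). Array weights let Ereg (0.41) and Tgfa (0.34) pass as well. MRL day 7 minus the arrays labelled day 3 called 3 members lower, beside 13.4% of all probe sets: Ereg at -0.78 ± 0.16, Btc at -0.84 ± 0.21 and Tgfa at -0.59 ± 0.14. Btc was lost there without the array labelled MRL day 3 replicate 1 (-0.61) or MRL day 7 replicate 1 (-0.54). With only the compared groups in the fit Btc was lost too (limma adjusted p = 0.0893). In that fit Epgn (-0.88, limma adjusted p = 0.00238) and Hbegf (-0.30, limma adjusted p = 0.0400) passed as lower. Egfr passed as lower with median scaling (-0.28), the offset (-0.26) and array weights (-0.29). MRL day 14 minus the arrays labelled day 3 called Ereg lower, at -0.73 ± 0.16, beside 7.55% of all probe sets, and Btc passed too without the array labelled MRL day 3 replicate 2 (-0.74). Array weights let Btc (-0.49), Hbegf (-0.52) and Egfr (-0.25) pass there as well. Hbegf also passed with the compared groups alone (-0.46), and Egfr with median scaling (-0.31) and the offset (-0.28).

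Set against B6 as labelled, MRL minus B6 at day 0 called 1 of 7 members higher, Epgn at 1.41 ± 0.48 (limma adjusted p = 0.0247), beside 17.9% of all probe sets. That call was lost without any 1 of the B6 arrays of day 0 (1.38 to 1.44) and without the array labelled MRL day 0 replicate 1 (0.84). Without that last array Egfr passed, at -0.28. MRL minus B6 at day 3 called 4 members higher, Ereg, Btc, Egfr and Tgfa, and 1 lower, Epgn, beside 27.1% and 13.6% of all probe sets. The differences were 1.88 ± 0.16 for Ereg, 1.46 ± 0.21 for Btc, 0.73 ± 0.10 for Egfr, 0.50 ± 0.14 for Tgfa and -2.11 ± 0.48 for Epgn, and the Tgfa call was lost without B6 day 3 replicate 2 (0.34). The strain differences in the change since day 0, as labelled, called 5 members at day 3, 2 at day 7 and 1 at day 14, beside 45.2%, 31.2% and 26.7% of all probe sets called either way.

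The same 6 arrays were also set against whichever of B6 day 0 and B6 day 3 was nearer in neutrophil and hair shaft markers. That choice was made with those marker levels known. With B6 days 7 and 14 included, the medians of both lists on the arrays labelled MRL day 3 lay nearest B6 day 14. Those on the arrays labelled MRL day 0 lay nearest B6 day 7. The arrays labelled MRL day 3, against intact B6 digits, had 1 of 7 members called higher, Ereg at 0.90 ± 0.16 (limma adjusted p = 0.000288), beside 18.0% of all probe sets. Epgn was above all B6 day 0 arrays there as well, by 1.10 ± 0.48, without passing (limma adjusted p = 0.0895). Epgn did pass there with only the compared groups in the fit (limma adjusted p = 0.00111) and with array weights (1.17, limma adjusted p = 0.0436). The arrays labelled MRL day 0, against B6 day 3, had Ereg (0.79 ± 0.16), Btc (0.76 ± 0.21) and Egfr (0.37 ± 0.10) called higher, beside 6.87% of all probe sets. Epgn was called lower there, at -1.81 ± 0.48 (limma adjusted p = 0.0191), beside 4.06%, although replicate 1 labelled MRL day 0 reached into the B6 range. The call of Epgn was lost without the array labelled MRL day 0 replicate 2 (-1.55) or 3 (-1.50) or B6 day 3 replicate 1 (-1.45), with array weights (-1.39, limma adjusted p = 0.0668) and with the compared groups alone (limma adjusted p = 0.0779). That of Btc was lost without any 1 of the 3 arrays labelled MRL day 0 (0.82, 0.73 and 0.72) or B6 day 3 replicate 1 (0.67). That of Egfr was lost without the array labelled MRL day 0 replicate 1 (0.27) or 2 (0.35) or B6 day 3 replicate 2 (0.33) and with the compared groups alone (limma adjusted p = 0.173).

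Ordered by their means, the 8 groups of each member mostly overlapped their neighbours. The share of all probe sets with such overlap was not counted. For Epgn the order was B6 day 3, B6 day 7, B6 day 14, labelled MRL day 0, labelled MRL day 3, MRL day 14, MRL day 7 and B6 day 0, and among neighbours only MRL day 14 and MRL day 7 did not overlap. For Hbegf, B6 day 7 and day 3 came first and MRL day 7 and day 14 last, and only those last groups did not overlap. Their nearest arrays read 8.29 and 8.27, and their difference was not called (limma adjusted p = 0.86). For Ereg the arrays labelled MRL day 3 lay clear above the next group and B6 day 3 lay clear below the rest. Egfr had the same lowest group, B6 day 3, clear of its neighbour, and the arrays labelled MRL day 3 at the top with overlap. For Btc the only neighbours without overlap were MRL day 14 and the arrays labelled MRL day 0. Their nearest arrays read 7.71 and 7.69, and their difference was not called (0.22 ± 0.21, limma adjusted p = 0.545). B6 day 3, the lowest group for Btc, overlapped its neighbour. For Tgfa and Egf every neighbour overlapped.

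Across the 24 arrays, Epgn and Hbegf had a Pearson correlation of 0.80, and one of 0.76 between their deviations from the group means. Ereg and Egfr had 0.90, and 0.60 between deviations. Btc had 0.79 with Ereg and 0.74 with Egfr, while the deviations gave 0.28 and -0.11. These arrays share a common scaling and a time course, so that the values are a description.

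**Figure D3:**
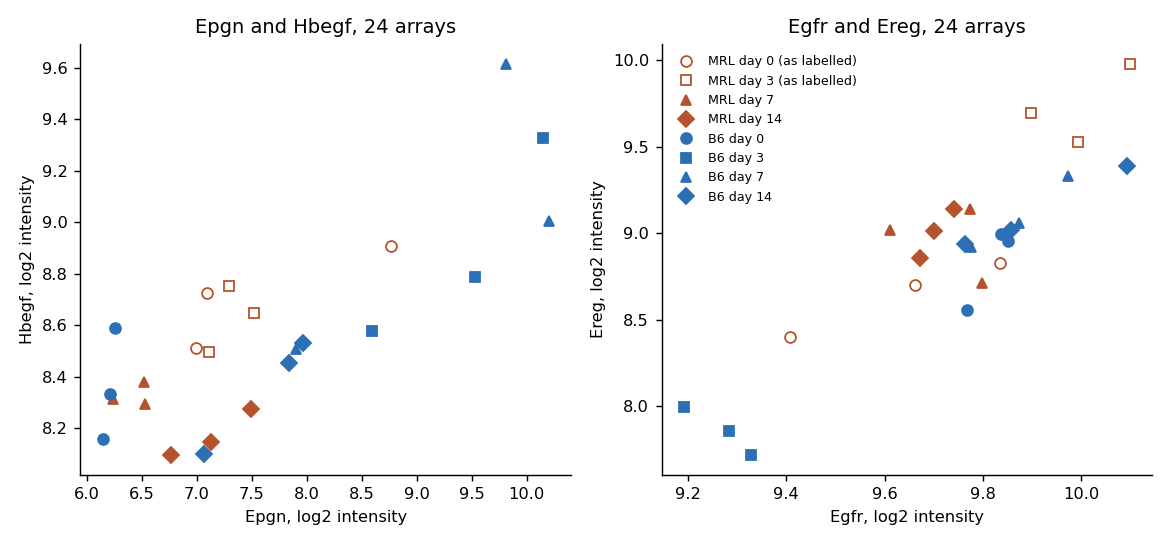
Log2 intensity of Hbegf against Epgn (left) and of Ereg against Egfr (right) on the 24 arrays, with symbols for strain and day and open symbols for the arrays labelled MRL day 0 and day 3. In the left panel the B6 arrays of days 3 and 7 spread to the upper right, with 1 array of B6 day 7 at 7.90 for Epgn; in the right panel the 3 arrays of B6 day 3 stand alone at the lower left.

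The genes most like each member over the 24 arrays, by Pearson correlation over 1 probe set a gene, were listed without regard to function. Epgn was most like Mal (0.90), Il24 (0.88) and Tmprss11d (0.87). Hbegf was most like Ptges (0.86), Ggt5 (0.85) and Samd12 (0.83). Ereg was most like Tjp1 (0.95), a tight junction protein, Zkscan1 (0.93) and Golga4 (0.92). Egfr was most like Zkscan8 (0.91), Heph (0.90) and Fam199x (0.90), and Btc also had Heph first (0.86), followed by Abhd3 (0.86) and Rassf9 (0.85). Tgfa was most like Prkx (0.90), Bicdl2 (0.88) and Baiap2l1 (0.88). For Egf, which varied little, the nearest was Sftpc at 0.78.

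The other genes of the pathway were followed in the same comparisons, and their counts stand beside those over all probe sets. In B6, 17.4% of all probe sets were called higher and 28.0% lower at day 3, 23.5% and 19.4% at day 7, and 22.8% and 14.2% at day 14. Between the strains, 3.18% were higher and 6.27% lower in MRL at day 7, and 5.27% were called either way at day 14. At day 3 in B6 the median difference was -0.85 for the receptors and neuregulins, 0.27 for the sheddases, -0.19 for the adaptors and kinases, -0.31 for the feedback inhibitors and -0.15 for the early response genes, against -0.08 over all probe sets. Of the receptors and neuregulins, 4 of 7 were measured. ErbB2 has no ligand of its own and serves as partner of the other receptors, ErbB3 binds neuregulins, and Nrg4 and Nrg1 are neuregulins. At day 3 in B6, 3 of the 4 were lower than at day 0 and 0 were higher. Nrg4 read 6.87 ± 0.19 against 7.99 ± 0.07, Erbb2 8.54 ± 0.23 against 9.50 ± 0.04 and Erbb3 9.26 ± 0.12 against 10.01 ± 0.07 (SD, n = 3 each). Their differences were -1.12 ± 0.13, -0.96 ± 0.12 and -0.74 ± 0.10 (limma adjusted p = 9.48e-07, 1.38e-06 and 8.08e-06). Nrg1, at 0.19, did not pass there and passed with 3 scalings, cyclic loess (0.42), median (0.35) and quantile (0.35). At day 7 the same 3 genes were still lower, Erbb2 at -0.93, Erbb3 at -0.79 and Nrg4 at -0.69, and at day 14 they were at -0.66, -0.50 and -0.69. Nrg1 was called higher at both days, at 0.36 and 0.35. Those Nrg1 calls were lost at day 7 without B6 day 0 replicate 2 (0.36) or 3 (0.32) or B6 day 7 replicate 2 (0.37) or 3 (0.31), and at day 14 without any 1 of the B6 arrays of day 0 (0.31 to 0.39) or B6 day 14 replicate 2 (0.26) or 3 (0.38), with median scaling (0.28) and with quantile normalization (0.31). Between the strains, limma called 0 of 4 at day 7, with 1 at an unadjusted p under 0.05, and 0 of 4 at day 14, with 0. Erbb2 was called higher in MRL at day 7 with cyclic loess (0.30), median (0.29) and quantile (0.30) scaling.

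Of the sheddases, which cut ligand precursors, and their partners, 8 of 9 were measured, all but Adam17. At day 3 in B6, 4 were higher and 2 lower than at day 0. Adam8, a protease of leukocytes, read 9.73 ± 0.31 against 7.59 ± 0.31, a difference of 2.14 ± 0.19 (limma adjusted p = 1.41e-08). Adam12 was higher by 1.48 ± 0.15, Adam10, which is known to release betacellulin and EGF, by 0.60 ± 0.09 and Adam9 by 0.58 ± 0.10. Rhbdf1, one of the inactive rhomboid proteins that carry Adam17 to the surface, was lower at -0.81 ± 0.13, and Rhbdf2 at -0.40, the last lost without B6 day 3 replicate 2 (-0.34). The all-gene scaling turned 1 member: Adam19, at -0.03 and not called, was called higher with cyclic loess (0.20, limma adjusted p = 0.0155). At day 7, 4 were higher and 2 lower, with Adam12 at 2.27, Adam9 at 1.05, Adam10 at 0.93 and Adam8 at 0.79, and cyclic loess called 5 higher and 3 lower. At day 14, 4 were higher and 1 lower, with Adam12 still at 1.86 and Adam8 at 0.58, the last lost without B6 day 0 replicate 2 (0.41) or B6 day 14 replicate 2 (0.47) or 3 (0.53). Each of the 3 scalings called 3 lower at day 14, adding Adam15 and Rhbdf1. In MRL against B6 at day 7, 1 was higher, Adam19 at 0.34, and 1 lower, Adam9 at -0.32. Adam9 was lost without any 1 of the 6 arrays compared (-0.28 to -0.35) and with each scaling, and Adam19 without B6 day 7 replicate 2 (0.29) or MRL day 7 replicate 1 (0.30). With the compared groups alone both Adam9 and Adam19 were lost (limma adjusted p = 0.0554 and 0.0582). Adam9 was also lost without the 6 doubtful MRL arrays and with the replicate block (limma adjusted p = 0.0664 and 0.0530). Rhbdf1, at 0.40, passed there with cyclic loess (0.46), median (0.44) and quantile (0.46) scaling and without B6 day 7 replicate 1 (0.47). It also passed with the offset (0.38), with dim probe sets left out and with array weights (0.32). At day 14 Adam8 was lower in MRL, at -0.67, a call lost with each scaling and without any array but B6 day 14 replicate 1 (-0.57 to -0.72). It was also lost without the 6 doubtful MRL arrays and with the replicate block (limma adjusted p = 0.0578 and 0.0543). Adam12 passed as lower in MRL there with array weights (-0.36).

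Of the adaptors and kinases that carry the signal, 9 of 16 were measured. At day 3 in B6, 1 was higher, Map2k1 (the kinase MEK1), at 10.08 ± 0.18 against 8.97 ± 0.14 (1.10 ± 0.11, limma adjusted p = 1.38e-07). The other calls were 4 lower: Plcg1, a phospholipase, at -0.77 ± 0.09, the adaptor Gab1 at -0.36, the Ras exchange factor Sos1 at -0.36 and the kinase Map2k2 at -0.35. Sos1 was lost with cyclic loess (-0.15), median (-0.20) and quantile (-0.22) scaling and without B6 day 0 replicate 1 (-0.31), and Map2k2 with median scaling (-0.20), without any 1 B6 array of day 0 (-0.35 to -0.36) and without B6 day 3 replicate 2 (-0.34) or 3 (-0.22). Map2k2 was also lost with the compared groups alone and without the 6 doubtful MRL arrays (limma adjusted p = 0.0887 and 0.0610). Shc1, at 0.24, was called higher with cyclic loess (0.22) and median (0.40) scaling. At day 7, 2 were higher, Map2k1 at 0.88 and Shc1 at 0.37, and 2 lower, Plcg1 at -0.46 and Map2k2 at -0.37. Shc1 was lost with cyclic loess and quantile scaling (0.17 each), and Map2k2 without any 1 B6 array of day 0 (-0.36 to -0.37) or B6 day 7 replicate 2 (-0.20). The day 7 call of Map2k2 was also lost with the compared groups alone and without the 6 doubtful MRL arrays (limma adjusted p = 0.0771 and 0.0556). Cyclic loess called 1 higher and 4 lower at day 7 and quantile normalization 1 and 5. At day 14, 2 were higher, Map2k1 at 0.76 and Shc1 at 0.37, and 2 lower, Map2k2 at -0.42 and Plcg1 at -0.27. Shc1 was lost there with cyclic loess and quantile scaling (0.18 each), Map2k2 without B6 day 14 replicate 2 (-0.38), and Plcg1 without B6 day 0 replicate 1 (-0.25) or B6 day 14 replicate 1 (-0.24) or 2 (-0.27). Cyclic loess and quantile normalization each called 1 higher and 4 lower at day 14. In MRL against B6 at day 7, 1 of 9 was called, Plcg1, higher at 0.29, and lost without B6 day 7 replicate 2 (0.19) or 3 (0.32) or any 1 MRL array of day 7 (0.26 to 0.32). That call was also lost with the compared groups alone and without the 6 doubtful MRL arrays (limma adjusted p = 0.135 and 0.0630). At day 14 limma called 0 of 9 between the strains, with 1 at an unadjusted p under 0.05. Sos1 passed there as higher in MRL with median (0.35) and quantile (0.35) scaling and with array weights (0.28).

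Of the feedback inhibitors, 13 of 16 were measured, and at day 3 in B6, 6 were lower and 0 higher than at day 0. Spry1, a Sprouty protein, read 7.62 ± 0.23 against 9.04 ± 0.06, a difference of -1.42 ± 0.10 (limma adjusted p = 3.59e-10). Lrig1, which lowers EGFR at the cell surface, stood at -0.96 ± 0.11, its relative Lrig3 at -0.88 ± 0.09 and Socs5 at -0.50 ± 0.17. The count depended on the scaling: with median scaling Spry2 (0.35), Spred2 (0.44), Dusp6 (0.38) and Socs4 (0.51) were called higher and Errfi1 (-0.34) no longer passed. Socs5 was lost with cyclic loess (-0.33) and median scaling (-0.34) and without B6 day 0 replicate 2 (-0.45) or B6 day 3 replicate 2 (-0.48) or 3 (-0.38). At day 7, 4 were higher and 2 lower, and Lrig1 (-0.68) and Spry1 (-0.66) were the lower ones. That split turned with the scaling: cyclic loess called 1 higher and 5 lower, adding Lrig3, Dusp6 and Cbl as lower, and quantile normalization called 2 higher and 6 lower, adding Socs5 as well. Among the higher ones, Socs4 (0.65) was lost with cyclic loess (0.46) and without B6 day 0 replicate 3 (0.41), and Spred2 (0.44) with cyclic loess (0.34), with quantile normalization (0.33) and without that array (0.27) or B6 day 7 replicate 1 (0.36). Spred2 was also lost with the compared groups alone (limma adjusted p = 0.0525). At day 14, 3 were higher and 2 lower, with Socs4 at 0.82, Spred2 at 0.59, Spry1 at -0.59 and Lrig1 at -0.41. Cyclic loess and quantile normalization each called 2 higher and 6 lower there, and with cyclic loess the added lower calls were Errfi1 (-0.41), Lrig3 (-0.20), Cbl (-0.22) and Socs5 (-0.49). In MRL against B6 at day 7, Lrig3 alone was called, higher at 0.36, and lost without B6 day 7 replicate 2 (0.28) or MRL day 7 replicate 1 (0.34) or 3 (0.35). Lrig3 was also lost with the compared groups alone (limma adjusted p = 0.0642). Dusp4, at -0.34, passed as lower with each scaling (-0.30 each), the offset (-0.27), dim probe sets left out, array weights (-0.26) and without MRL day 7 replicate 3 (-0.42). Dusp6 passed as lower with median scaling (-0.31) and array weights (-0.28). Errfi1 (-0.39) did so without the 6 doubtful MRL arrays or B6 day 7 replicate 1 (-0.52). At day 14 limma called 0 of 13 between the strains, with 0 at an unadjusted p under 0.05.

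Of the early response and target genes, 16 of 19 were measured. At day 3 in B6, 5 were higher and 5 lower. Plaur, the receptor of urokinase, read 9.17 ± 0.22 against 6.87 ± 0.20 (2.30 ± 0.13, limma adjusted p = 1.96e-11), and Plau, urokinase itself, 10.15 ± 0.11 against 8.97 ± 0.30 (1.18 ± 0.17). Ier3 was higher by 0.89 ± 0.11. Egr3, an early response transcription factor, was lower at -1.21 ± 0.16. With median scaling Jun (0.33) and Junb (0.38) were called higher too, and Egr2 (-0.23) and Phlda1 (-0.24) no longer passed as lower, a split of 7 higher and 3 lower. At day 7, 4 were higher and 8 lower, with Plaur at 1.27, Plau at 0.76, Egr3 at -1.16 and Etv4 at -0.61, the last lost without B6 day 0 replicate 2 (-0.53). At day 14, 2 were higher and 5 lower, with Plaur at 0.93, Egr3 at -0.67, Junb at -0.58 and Egr1 at -0.51, the last lost without B6 day 0 replicate 2 (-0.46) or B6 day 14 replicate 3 (-0.45). With median scaling 2 were higher and 9 lower at day 14, and with cyclic loess 1 and 7. In MRL against B6 at day 7, 2 of 16 were lower and 0 higher. These were Plau, at 8.99 ± 0.14 in MRL against 9.73 ± 0.20 in B6 (-0.74 ± 0.17, limma adjusted p = 0.00814), and Ier3 at -0.44, which was lost without B6 day 7 replicate 2 (-0.39) or MRL day 7 replicate 3 (-0.40). Egr3 passed as higher with cyclic loess (0.40), median (0.41) and quantile (0.41) scaling and with array weights (0.32). Array weights also called Etv5 and Plaur lower (-0.33 each). At day 14 limma called 0 of 16, with 2 at an unadjusted p under 0.05. Array weights called Plaur (-0.38) and Plau (-0.45) lower in MRL there. Plaur and Plau are also made by leukocytes, whose markers were higher at day 3, and the part of those cells in the values was not tested.

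**Figure D4:**
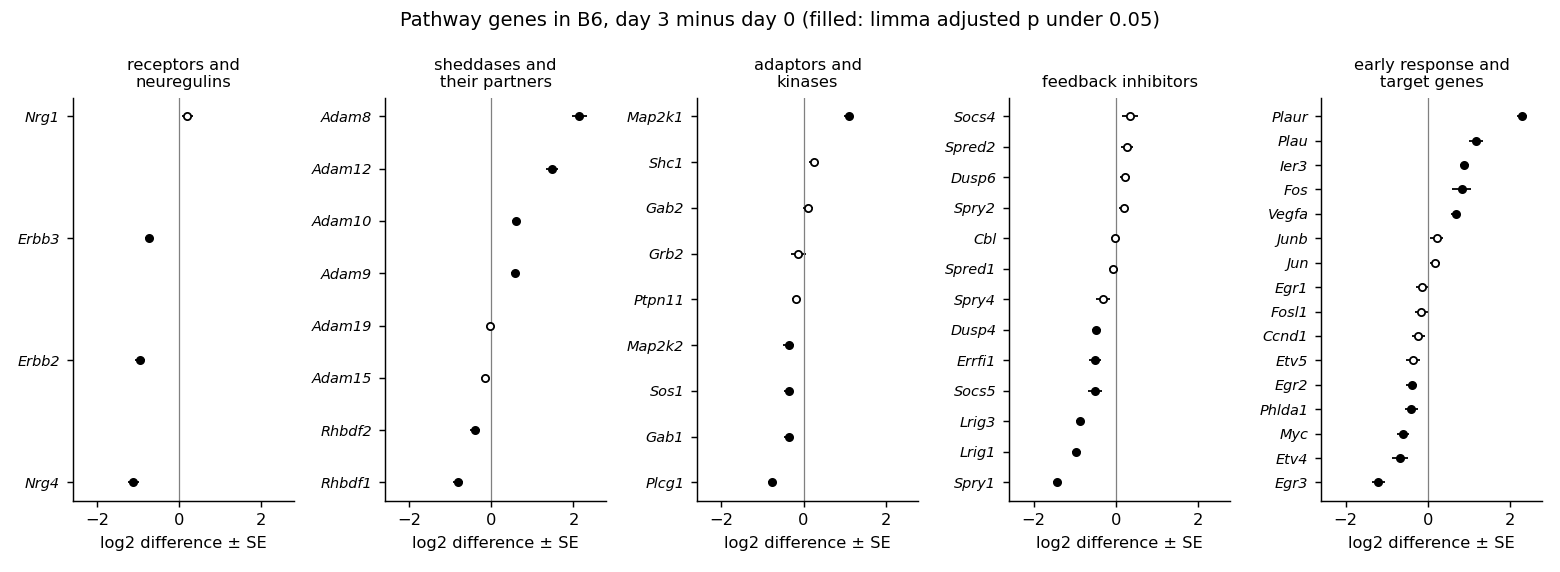
Log2 difference (x axis, ± SE) in B6, day 3 minus day 0, of each measured pathway gene (rows) in 5 lists, with filled circles for a limma adjusted p under 0.05. In the feedback inhibitors 6 of 13 are filled and all lie left of 0, and in the sheddases Adam8 at 2.14 and Adam12 at 1.48 lie farthest right.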

How the data were processed

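RNA of 24 digit samples was measured on a mouse exon array. The authors deposited 1 intensity per probe set and array on a linear scale, made with RMA in Affymetrix Expression Console on genome build mm8, per the submitters' processing notes; software versions are not given in the sources used here. Intensities were turned to log2 and fitted in R 4.3.3 by lmFit and eBayes of limma 3.58.1 (a mean for each of the 8 groups, all 24 arrays), with Benjamini-Hochberg adjustment over 15928 probe sets with a symbol, threshold 0.05. Of 16661 probe sets, 14939 had 1 symbol, 989 several and 733 none in the platform annotation. The number of arrays limits the precision. Each p-value sets a difference between group means against the spread of arrays within groups, estimated over the 8 groups together. No exact permutation test was used, because its p cannot go below 0.1 for groups of 3.

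The members, the gene lists and the comparisons were chosen with earlier results of these data known. All members are named; of each pathway list and comparison, up to 4 genes called were named by the size of their difference, and other list genes were named after their values were seen. Symbols of the lists without a probe set were not analysed here. The fit was tested on simulated data. Same-numbered replicates were not treated as pairs, since their deviations correlated above 0.1 in all 3 numbers in 1 of 28 pairs of groups. Alternatives were other scalings, an offset of 32, filters on dim probe sets, array weights, a replicate block, other sets of arrays and each array left out. Promoters are from RefSeq, build GRCm38.p6, with those of chromosome 18, where Hbegf lies, left out of the search. They were found for 6 members by symbol.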

Additional observations from a re-analysis of the deposited data

Results flagged for a closer look

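The strains differed in the change since day 0 for 6 members, by the limma interaction term, with the arrays taken as labelled. Of all probe sets, 45.2%, 31.2% and 26.7% were called either way by that term at days 3, 7 and 14. Each value is the MRL change minus the B6 change in log2. At day 3 it was -3.52 ± 0.68 for Epgn (limma adjusted p = 0.000265), 2.07 ± 0.23 for Ereg (2.59e-07), 0.78 ± 0.20 for Tgfa (0.0029), 1.92 ± 0.30 for Btc (2.68e-05) and 0.91 ± 0.14 for Egfr (2.91e-05). At day 7 it was -4.29 ± 0.68 for Epgn (limma adjusted p = 7.74e-05) and -1.07 ± 0.29 for Hbegf (0.00873), and at day 14 it was -1.90 ± 0.68 for Epgn (0.0441). Each of these values rests on arrays labelled MRL day 0, and those of day 3 also on arrays labelled MRL day 3, whose neutrophil and hair shaft markers went against their labels. The day 14 call of Epgn was lost without any 1 of the B6 arrays of day 0 (-1.91, -1.87 and -1.93), without the array labelled MRL day 0 replicate 1 (-1.33), and without B6 day 14 replicate 1 (-1.80) or 2 (-1.73) or MRL day 14 replicate 1 (-1.90) or 2 (-1.72). Groups of 3 arrays were not searched for outlying samples.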

How the results depend on the processing

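Of 1365 member values recomputed under other settings, 1300 kept their side of the threshold, as did 983 of 1050 with 1 array left out. Where a value passed before or after the change of setting, 0 reversed direction. Values that passed in neither case were counted as kept even where their sign changed. Among pathway and marker genes 1 reversed, Adam19 in B6 day 3 minus day 0, at 0.20 with cyclic loess. Numbers of members called that moved by over 1.5 times are given first, and the cause was not tested. In B6, day 14 minus day 0 called 1, against 0 with the offset and 2 with quantile normalization, and day 14 minus day 7 called 0, against 1 with cyclic loess and 1 with median scaling. MRL day 14 minus day 7 called 1, against 0 with the compared groups alone. MRL minus B6 at day 7 called 2, against 1 with array weights, 1 with the compared groups alone and 1 without the 6 arrays labelled MRL day 0 and day 3. As labelled, MRL day 14 minus day 0 called 0, against 3 with array weights and 1 each with the compared groups alone, cyclic loess, median and quantile. MRL day 14 minus day 3 called 1, against 4 with array weights and 2 each with the compared groups alone, median scaling and the offset. MRL minus B6 at day 0 called 1, against 3 with quantile, 0 with the offset and 2 each with array weights, the compared groups alone and cyclic loess. The arrays labelled MRL day 3 minus B6 day 0 called 1, against 2 with array weights and 2 with the compared groups alone, and those labelled MRL day 0 minus B6 day 3 called 4, against 2 with the compared groups alone. The strain difference in the day 14 change called 1, against 2 each with array weights, cyclic loess, the dim filter, median and quantile, 0 with the offset and 0 with the replicate block. Smaller moves were those of B6 day 3 minus day 0 (6, against 4 with the compared groups alone and 5 with array weights, cyclic loess, median scaling, the replicate block or without the 6 arrays), B6 day 7 minus day 0 (3, against 2 with the compared groups alone), labelled MRL day 0 minus B6 day 3 (4, against 3 with array weights), and, as labelled, MRL day 3 minus day 0 (3, against 2 to 4), MRL day 7 minus day 3 (3, against 4 under 4 settings), MRL minus B6 at day 3 (5, against 6 with cyclic loess) and the day 3 strain difference (5, against 6 with each scaling).

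With 1 array left out, the members called ranged 4 to 6 in B6 day 3 minus day 0, 2 to 3 in day 7 minus day 0, 0 to 1 in day 14 minus day 0, 3 to 3 in day 7 minus day 3 and 0 to 2 in day 14 minus day 7. They ranged 0 to 1 in MRL day 14 minus day 7, 1 to 2 in MRL minus B6 at day 7, 0 to 0 at day 14 and 0 to 1 in the strain difference between days 7 and 14. As labelled they ranged 1 to 3 in MRL day 3 minus day 0, 0 to 0 in day 7 minus day 0, 0 to 1 in day 14 minus day 0, 2 to 3 in day 7 minus day 3, 1 to 2 in day 14 minus day 3, 0 to 1 in MRL minus B6 at day 0 and 4 to 5 at day 3. They ranged 1 to 1 for labelled MRL day 3 minus B6 day 0, 1 to 4 for labelled MRL day 0 minus B6 day 3, and 5 to 6, 2 to 2 and 0 to 1 for the strain differences at days 3, 7 and 14.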
